A study of Mus musculus with 12 samples.

Results

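Abcg5, Abcg8, Abca1, Abcg1, Nr1h3, Nr1h2, Scarb1 and Soat2 are 8 mouse genes that move cholesterol out of cells or into bile, take it up, store it, or set the level of the other genes as the liver X receptors (LXR). They were taken by symbol from a deposited table of 35275 genes, and all 8 passed the filter on low values that left 12251 genes for testing. The table holds FPKM, fragment counts scaled to gene length and to library depth, from RNA sequencing of samples given as liver. There were 3 libraries in each of 4 groups, which the design text calls biological replicates. WT chow came from wild-type mice on vivarium chow, and WT HFD from wild-type mice on a high fat diet. KO chow and KO HFD came from mice labelled as liver knockouts of Hnf4a, a nuclear receptor of hepatocytes, on vivarium chow and on the high fat diet. How the knockout was made, the age and sex of the mice and the time on the diet were not given in any source used here. The series title asks how the diet and the loss of Hnf4a affect gene expression in the liver.

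LXR alpha and LXR beta bind oxidised sterols and act on DNA as partners of the retinoid X receptors. When a cell holds much sterol they raise the transcription of export genes, among them Abca1, Abcg1 and the Abcg5 and Abcg8 pair. In the liver, Abcg5 and Abcg8 proteins join into 1 transporter that passes sterols into bile, and Abca1 loads cholesterol onto apolipoprotein A-I to begin high density lipoprotein (HDL). Scarb1 encodes SR-BI, the receptor that takes cholesteryl ester from HDL, and Soat2 encodes the enzyme that esterifies cholesterol in hepatocytes.

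The start sites of Abcg5 and Abcg8 lie 110 bases apart on opposite strands, and the stretch between them is shown because these genes had nearly the same profile across libraries. It is given on the plus strand of RefSeq's GRCm38.p6, chr17:84683012-84683120, with matches to the GATA motif AGATAA (read on the minus strand) in capitals.
Abcg5 and Abcg8, between the starts: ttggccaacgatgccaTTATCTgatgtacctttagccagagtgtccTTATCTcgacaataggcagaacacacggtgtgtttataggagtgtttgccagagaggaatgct
Of 32851 RefSeq promoter windows (250 bases before to 50 after a start, both strands searched), 11.2% held AGATAA. The Abca1 stretch is shown because Abca1 was the member whose groups separated in all 4 pairs that differ in diet or genotype alone. It is given on the gene's own minus strand, chr4:53159905-53160022, and the capitals mark GGTTA, 4 further bases and CGGTCA read on the plus strand, 53 to 67 bases before the start.
Abca1, before the start: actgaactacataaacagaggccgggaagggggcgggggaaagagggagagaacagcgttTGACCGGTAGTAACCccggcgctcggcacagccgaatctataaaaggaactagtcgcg
The letters searched were those known from the ABCA1 promoter, so a match here is no independent find. That arrangement was held by 0.0122% of the windows, 4 of 32851. The nuclear receptor hexamer AGGTCA was held by 16.3% of windows, and its direct repeat with 4 bases between, which contains it, by 0.0152%. The HNF4 core CAAAGTC was held by 4.44% of windows. AGGTCA, its repeat and CAAAGTC were not found in the windows of Abca1, Abcg5, Abcg8, Nr1h3 or Nr1h2, the 5 members matched in the promoter table. A match or its lack in a window is a description of letters only.

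The libraries labelled WT chow 2 and WT chow 3 stood apart from the rest. WT chow 3 held 11.9 FPKM of Alb, the serum albumin gene, against 7604 to 41503 FPKM in the others. It also held 2339 FPKM of Ucp1 and 8367 FPKM of Fabp4, genes that define brown fat and adipocytes, and 37.5% of its reads were mitochondrial against 3.39% to 6.26% elsewhere. WT chow 2 had the next lowest Alb, 7604 FPKM, and a hepatocyte marker sum of 12268 FPKM, between the 33.9 FPKM of WT chow 3 and the 38660 to 68432 FPKM of the other 10 libraries. Estimates against WT chow are therefore given with all 12 libraries and with the 10 left after both were removed, a choice made with the values known. Comparisons among the other 3 groups have the same estimate in both fits, and their errors and adjusted p differ. In those 10 libraries WT chow is 1 library, which the fit assumes to vary like the other groups. Hnf4a did not separate the genotypes as labelled. Its transcript stood at 158, 132 and 130 FPKM in the KO chow libraries and at 108, 98.8 and 138 FPKM on HFD. WT HFD held 133, 116 and 120 FPKM, and WT chow held 126, 75.8 and 0.0973 FPKM. KO was not lower on chow (means of 140 and 67.2 FPKM, exact permutation test, two-sided, p = 0.1, the lowest possible with 3 against 3) or separated on HFD (115 and 123 FPKM, exact p = 0.6). Whether these libraries carry a deletion that leaves the transcript in place was not tested, and KO below means the libraries so labelled.

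In the 10 libraries the members covered a wide range of expression per gene length. Scarb1 had the highest mean at 68.1 ± 20.6 FPKM (SD, n = 10), followed by Nr1h3 at 61.5 ± 6.15, Abcg5 at 40.8 ± 14.9 and Abcg8 at 37.1 ± 13.0 FPKM. Soat2 stood at 25.5 ± 7.96, Nr1h2 at 21.5 ± 4.0, Abca1 at 11.8 ± 3.81 and Abcg1 at 1.91 ± 1.75 FPKM. Scarb1 and Nr1h3 had medians of 60.6 and 61.7 FPKM, and Nr1h3 was the higher in 5 of the 10 libraries. Neighbours in this order had overlapping ranges of mean ± SD except Nr1h2 and Abca1, and Abca1 and Abcg1. Nr1h3 was among the steadiest genes measured, with a coefficient of variation of 10% over the 10 libraries. Only 3.71% of 11789 genes, not matched by level, varied less. Abcg1 was at the other end with 91.7%, above 96.8% of those genes, and the median gene had 23.6%.

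No member passed the test in any of 5 comparisons when all 12 libraries were used (limma on log2(FPKM + 1), Benjamini-Hochberg adjusted p under 0.05 over 12251 genes). The share of all tested genes that passed was 0% for KO chow against WT chow, 0.155% for KO HFD against WT HFD and 0% for WT HFD against WT chow. It was 0.155% for KO HFD against KO chow and 0.122% for the interaction, the test of whether the diet difference differs between genotype labels. At an unadjusted p under 0.05 limma gave 2, 0, 2, 1 and 2 of the 8 members in that order. Of all 12251 tested genes, 2584, 156, 1807, 924 and 2038 were under that same cutoff. With adjusted p, limma-voom on the recovered reads also called 0 members in each comparison. In the 10 libraries Abca1 alone passed, in KO HFD against KO chow, where 7.76% of all genes passed and 6.24% passed as lower. The median log2 difference of the 8 members there was 0.29 against −0.06 for all genes, with 6 members higher and 2 lower in KO HFD.

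**Figure D1:**
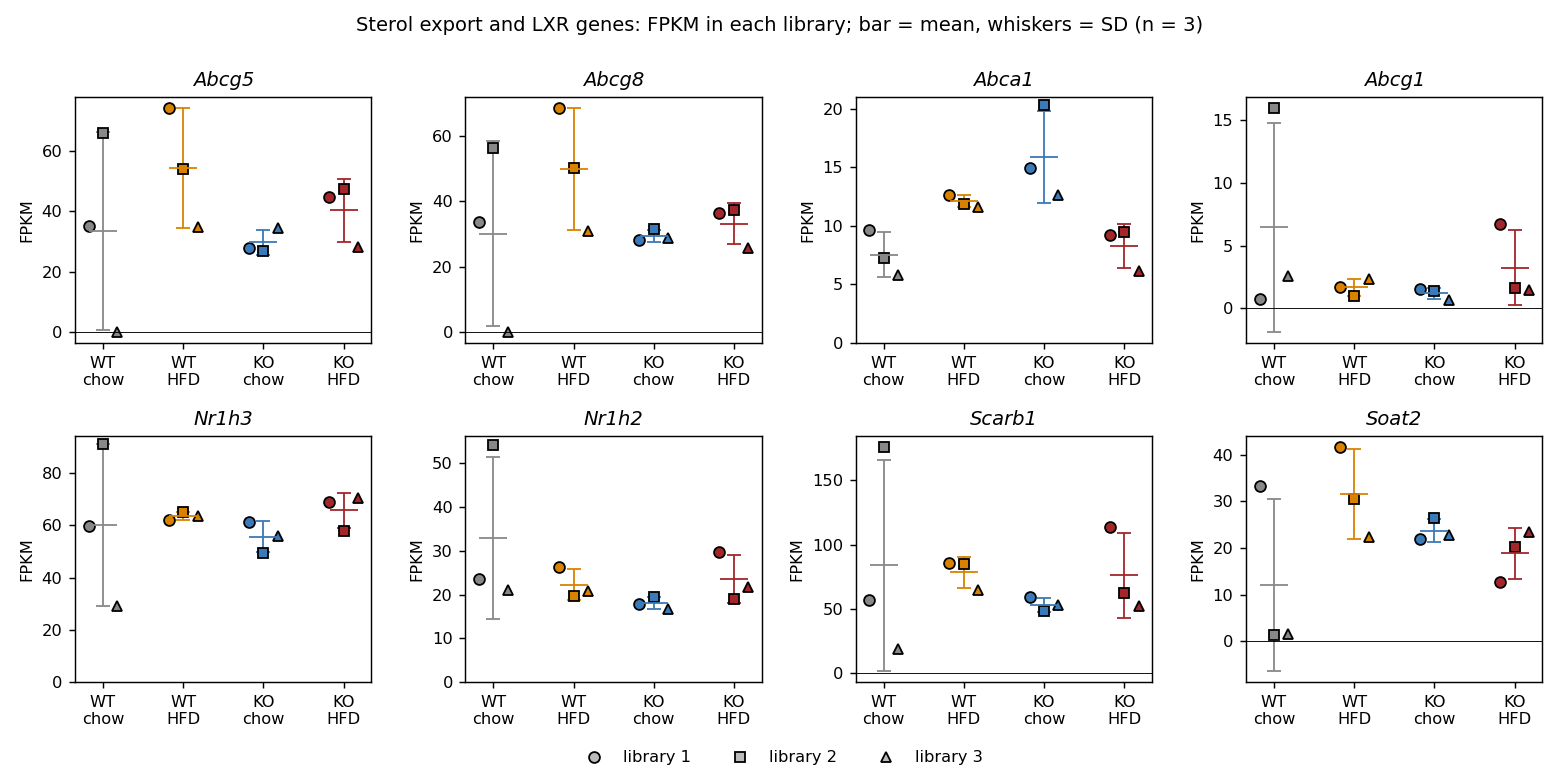
FPKM (y axis, linear) of each of the 8 genes in the 12 libraries, by group (x axis), with circles, squares and triangles for libraries 1, 2 and 3, a bar at the mean and whiskers of 1 SD (n = 3). Abca1 shows 4 group pairs that do not overlap, with KO chow at 12.6 to 20.3 FPKM and KO HFD at 6.17 to 9.51 FPKM, while the spread of WT chow in most other panels comes from WT chow 2 and WT chow 3.

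The bile transporter genes Abcg5 and Abcg8 followed each other closely and did not separate by genotype alone or diet alone. Abcg5 (ENSMUSG00000040505, GRCm38 chromosome 17, 84658234 to 84683011, minus strand) encodes one of the paired proteins. Its level was 27.7, 27.0 and 34.4 FPKM in KO chow, and 44.9, 47.5 and 28.3 FPKM in the libraries of KO HFD. WT HFD held the highest library, with 74.4, 54.0 and 34.7 FPKM, and WT chow held 35.0, 65.9 and 0.0258 FPKM. KO chow was the tightest group, and the 4 pairs of groups that differ in diet or genotype alone overlapped. Abcg8 (ENSMUSG00000024254, chromosome 17, 84676302 to 84700333, plus strand) encodes the other protein. WT HFD held 68.5, 50.3 and 30.9 FPKM of it and WT chow held 33.8, 56.5 and 0.0165 FPKM, while KO chow held 28.0, 31.4 and 28.9 and KO HFD held 36.3, 37.5 and 25.8 FPKM. The near-zero values in WT chow 3 rest on 1 read for each gene, in the library with hardly any albumin transcript.

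The FPKM ratio of Abcg5 to Abcg8 was 1.10 ± 0.117 (SD, n = 11) in the libraries other than WT chow 3, and ran from 0.859 in KO chow 2 to 1.27 in KO HFD 2. Over the 10 libraries the highest level was 2.76 times the lowest for Abcg5 and 2.65 times for Abcg8, so the ratio moved less than either gene. Their Pearson correlation over the 10 libraries was 0.94 on the log2 scale. Abcg5 was the gene most like Abcg8 of all 12245 compared, and Abcg8 had rank 3 for Abcg5. The gene bodies overlap over 6710 bases, and in the GENCODE M21 annotation their exons share 82 bases, of 2712 exonic bases in Abcg5 and 3749 in Abcg8. The strand setting of the counting is not given, so reads in those shared bases cannot be told apart.

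**Figure D2:**
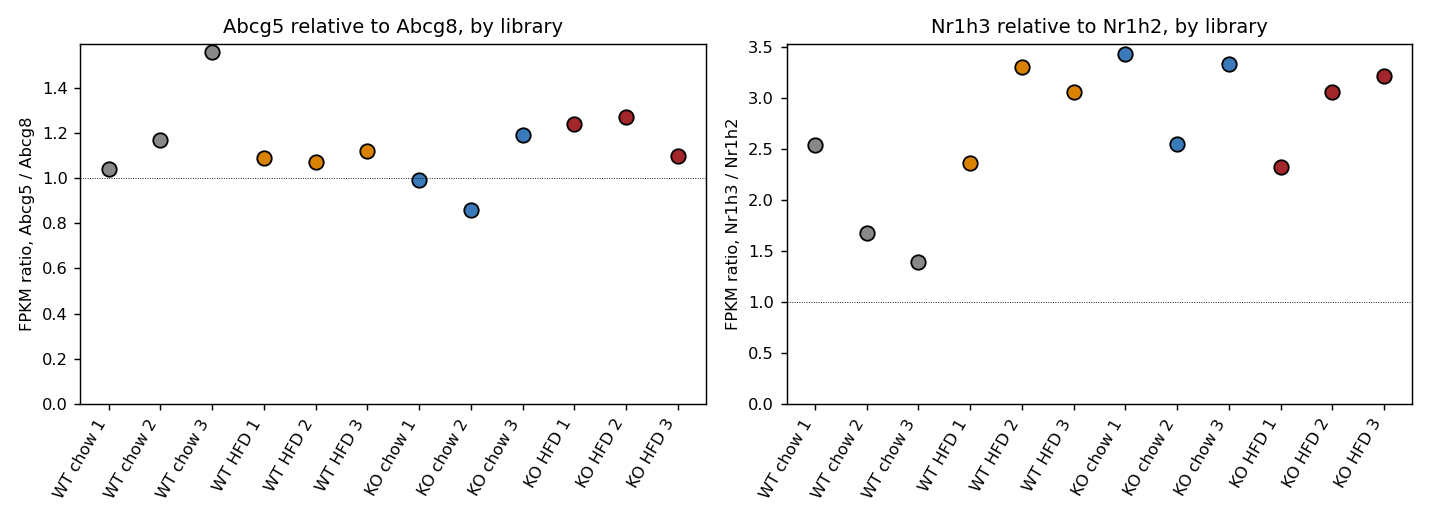
FPKM ratio of Abcg5 to Abcg8 (left) and of Nr1h3 to Nr1h2 (right) in each of the 12 libraries, 1 point per library, with a dotted line at 1. The Abcg5 to Abcg8 ratio keeps to 0.859 to 1.27 in 11 libraries, and its WT chow 3 point rests on 1 read per gene. The Nr1h3 to Nr1h2 ratio keeps to 2.32 to 3.43 except in WT chow 2 and WT chow 3.

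No genotype or diet difference of the pair passed the test. With 10 libraries, KO HFD stood below WT HFD by limma log2 differences of −0.39 for Abcg5 (95% interval −1.03 to 0.24) and −0.52 for Abcg8 (−1.11 to 0.07). KO HFD against KO chow gave 0.40 for Abcg5 (−0.24 to 1.03) and 0.15 for Abcg8 (−0.44 to 0.74). WT HFD against WT chow gave 0.55 and 0.48, again with intervals across 0 (−0.34 to 1.45 and −0.36 to 1.31). The pair had the same sign in each of these comparisons, except that rescaling to TPM gave −0.04 for Abcg8 in KO HFD against KO chow. With 12 libraries the estimates against WT chow became 1.18 and 1.26 for KO chow and 1.97 and 1.93 for WT HFD, with standard errors of 1.19 and 1.16, and without WT chow 3 the estimates for KO chow were −0.68 and −0.56.

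Abca1, the exporter that starts HDL, was the 1 member whose groups separated in all 4 pairs that differ in diet or genotype alone, and the diet difference ran in opposite directions in the genotypes. Abca1 (ENSMUSG00000015243, chromosome 4, 53030787 to 53159895, minus strand) stood at 9.65, 7.21 and 5.78 FPKM in WT chow and at 12.6, 11.9 and 11.6 in WT HFD. KO chow held 14.9, 20.3 and 12.6 FPKM, and KO HFD held 9.20, 9.51 and 6.17 FPKM. Every WT HFD library was above every WT chow library, and every KO HFD library was below every KO chow library. KO chow was above WT chow and KO HFD below WT HFD in all libraries. The order of the group means was KO chow (15.9 ± 3.92 FPKM, SD, n = 3), WT HFD (12.1 ± 0.506), KO HFD (8.29 ± 1.85) and WT chow (7.55 ± 1.95). KO HFD and WT chow, and KO chow and WT HFD, lay within their spread. The values rest on 979 to 4221 reads per library.

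Such separation was common in this table. The groups did not overlap for 16.8% of tested genes in KO chow against WT chow, 19.8% in KO HFD against WT HFD, 11.2% in WT HFD against WT chow and 31.5% in KO HFD against KO chow. The diet groups separated in opposite directions in WT and KO for 2.47% of genes, and 1.4% of genes, 172 in number, also had the genotype groups separated in opposite directions as Abca1 did. An exact two-sided permutation test gave p = 0.1 for Abca1 in each of the 4 pairs, the smallest value that 3 against 3 allows.

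The limma estimates for Abca1 with 12 libraries were 0.98 for KO chow against WT chow (SE 0.24, adjusted p = 0.195) and −0.51 for KO HFD against WT HFD (SE 0.24, adjusted p = 1). The diet difference was 0.64 in WT (SE 0.24, adjusted p = 0.314) and −0.86 in KO (SE 0.24, adjusted p = 0.649). With 10 libraries KO chow against WT chow was 0.64 (95% interval 0.01 to 1.27, adjusted p = 1). The WT diet difference was then 0.29, with an interval across 0 (−0.34 to 0.92, adjusted p = 1), so the WT direction was not supported without WT chow 2 and 3. KO HFD against WT HFD was −0.51 there too (95% interval −0.96 to −0.07, adjusted p = 0.371). The difference between the diet differences, the interaction, was −1.50 with 12 libraries (SE 0.34, 95% interval −2.26 to −0.73), and it did not pass after adjustment over all genes (adjusted p = 0.289). Without WT chow 1, which leaves WT chow 2 and 3 as the group, Abca1 passed in KO chow against WT chow (1.15, adjusted p = 0.00824), in WT HFD against WT chow (0.81, adjusted p = 0.045) and in the interaction (−1.67, adjusted p = 0.00796). In that fit 24.3%, 19.9% and 18.5% of all tested genes passed in these comparisons. With 10 libraries the interaction was −1.15 (95% interval −1.92 to −0.38, adjusted p = 0.463). The KO diet difference, which no WT chow library enters, was −0.86 with a smaller error in that fit (SE 0.20), a 1.81-fold lower level in KO HFD on the log2(FPKM + 1) scale, and passed with an adjusted p of 0.0401. Over the alternatives tried for this difference the adjusted p ran from 0.0111, with library weights, where 19.8% of all genes passed, to 1. The call was lost in 5 of 6 fits that removed 1 more KO library from the 10. The adjusted p was 0.136 without KO chow 1, 0.152 without KO chow 2, 0.0642 without KO HFD 1, 0.0518 without KO HFD 2 and 0.081 without KO HFD 3. Only without KO chow 3 was it still passed (−1.0, adjusted p = 0.0242), where 12.5% of all genes passed. The difference itself stayed between −0.68 and −1.0 in these 6 fits.

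**Figure D3:**
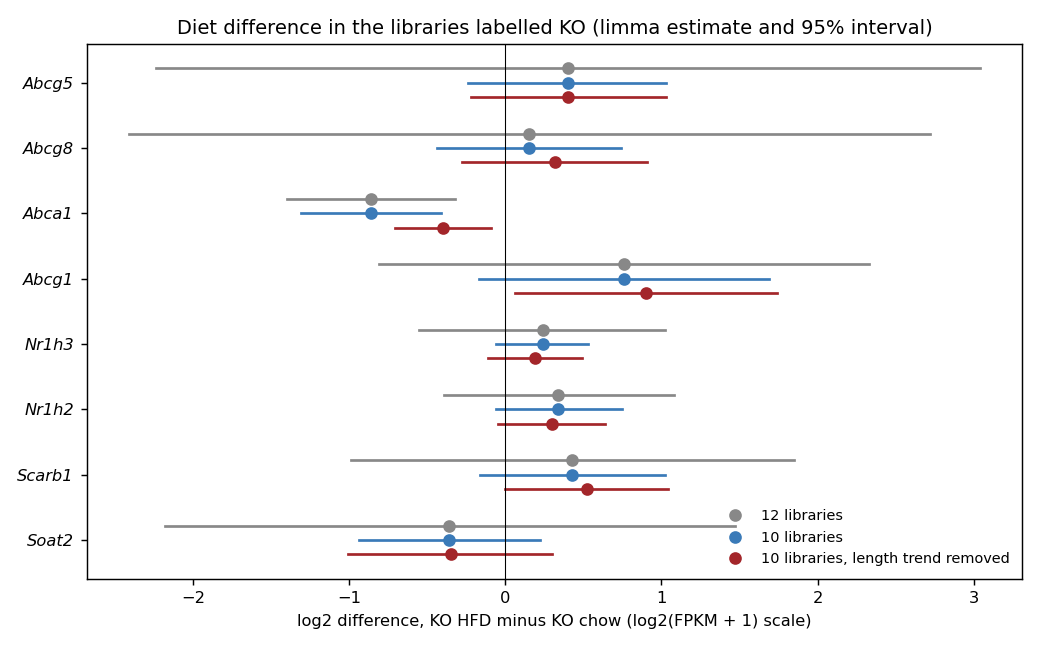
Limma log2 difference, KO HFD minus KO chow, on the log2(FPKM + 1) scale (x axis) for the 8 genes (y axis), with 95% intervals, from 12 libraries, from 10 libraries and from 10 libraries after the trend with gene length was removed. The interval of Abca1 lies below 0 in each, at −0.86, −0.86 and −0.40, and those of Abcg5, Abcg8, Nr1h3, Nr1h2 and Soat2 include 0 in each.

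Abca1 was also by far the longest member, and in the KO groups the long genes as a class moved with it. Its length in the table is 10262 bases, against 1985 to 3667 for the other 7. In KO HFD against KO chow the median log2 difference fell with length in 5 classes. It was 0.40 for 1259 genes of up to 1000 bases, 0.19 from 1000 to 2000, −0.06 from 2000 to 4000, −0.30 from 4000 to 8000, and −0.48 for 457 genes over 8000 bases. The other comparisons had trends too, from −0.25 to 0.33 for KO chow against WT chow, from 0.26 to −0.24 for KO HFD against WT HFD and from −0.14 to 0.07 for WT HFD against WT chow, shortest to longest class. The sign in the longest class was that of Abca1 in all 4 comparisons.

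Per library, the median deviation of genes over 8000 bases from the 10-library mean was 0.28, 0.40 and 0.04 in KO chow and −0.17, −0.19 and −0.34 in KO HFD. It was 0.00, −0.02 and 0.02 in WT HFD and −0.02, −0.50 and 0.25 in WT chow. In WT chow 3, the library with hardly any albumin transcript, the long genes stood above that mean and Abca1 had its lowest value of the 12 libraries. What set the Abca1 level in that library was not tested. Abca1 lay toward the edge of its length class. The genes of that class were not matched to Abca1 by level, and the log2(FPKM + 1) scale compresses differences of low genes. In KO HFD against KO chow 6.13% of the 457 long genes had a lower estimate than Abca1, against 2.41% of all genes. In KO chow against WT chow 93.0% of the long genes had a lower estimate.

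When the median deviation of genes of like length was subtracted in each library, an alternative added with the values known, the Abca1 groups still did not overlap in any of the 4 pairs, but the differences shrank. The adjusted levels were 9.78, 10.7 and 4.76 FPKM in WT chow, 12.6, 12.1 and 11.4 in WT HFD, 12.1, 15.3 and 12.3 in KO chow and 10.4, 10.9 and 8.10 in KO HFD. The shares of all genes separated on this scale were 16.2%, 15.7%, 11.7% and 25.9%, in the order given above. The KO diet difference became −0.40 with 10 libraries (SE 0.14, 95% interval −0.71 to −0.09), and its adjusted p of 0.167 did not pass. The interaction became −0.67 with 10 libraries (adjusted p = 0.819) and −0.94 with 12 (adjusted p = 0.362). Genes passing in KO HFD against KO chow went from 951 to 45 of 12251 under the same correction. The correction used length alone and not level, so it may remove too little or too much for a given gene. The cause of the trend with length was not tested.

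**Figure D4:**
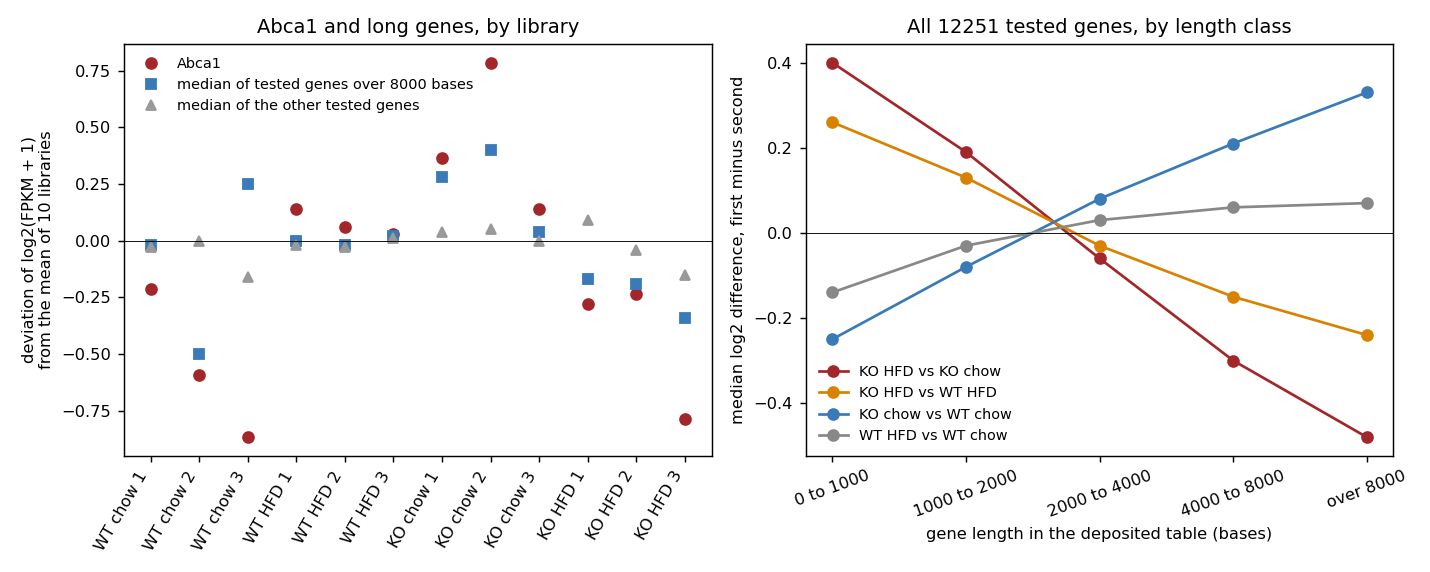
Left, deviation of log2(FPKM + 1) from the mean of the 10 libraries (y axis) in each library for Abca1, for the median of genes over 8000 bases and for the median of the other tested genes. Right, median log2 difference (y axis) of all 12251 tested genes in 5 classes of gene length (x axis) for 4 comparisons. Abca1 and the long genes are both above 0 in the 3 KO chow libraries and below 0 in the 3 KO HFD libraries, and the KO diet comparison runs from 0.40 in the shortest class to −0.48 in the longest.

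Abcg1, which passes cholesterol to formed HDL and is best known from macrophages, was the lowest member and the most uneven. Abcg1 (ENSMUSG00000024030, chromosome 17, 31057698 to 31115777, plus strand) stood at 1.71, 0.982 and 2.33 FPKM in WT HFD and at 1.51, 1.38 and 0.688 in KO chow. KO HFD held 6.71, 1.58 and 1.46 FPKM, and WT chow held 0.768, 16 and 2.59 FPKM. Single libraries, KO HFD 1 and WT chow 2, were the high ones and all groups overlapped. The KO diet difference of 0.76 with 10 libraries (95% interval −0.17 to 1.69) became 0.22 without KO HFD 1. As few as 39 reads lie behind the lowest value. The summed FPKM of 8 macrophage and Kupffer cell markers was 91.2 in KO HFD 1 and 181 in WT chow 2, and 63.3 to 222 over the 10 libraries. The part of those cells in Abcg1 was not tested, and in bulk tissue fewer cells of a type and less RNA per cell cannot be told apart.

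Scarb1, the HDL receptor gene, had the highest mean of the members, and likewise its highest values in single libraries. Scarb1 (ENSMUSG00000037936, chromosome 5, 125277087 to 125341094, minus strand) stood at 58.8, 47.9 and 53.3 FPKM in KO chow, and 114, 62.4 and 52.4 FPKM in the libraries of KO HFD. WT HFD held 85.3, 85.2 and 64.3 FPKM, and WT chow held 57.1, 176 and 18.3 FPKM. Every KO chow library was below every WT HFD library, groups that differ in both label and diet. The same held narrowly for Abcg5, Nr1h3 and Nr1h2. The highest KO chow and lowest WT HFD values were 34.4 and 34.7, 61.3 and 62.1, and 19.4 and 19.7 FPKM, in that order. The share of all genes separated in this pair was not counted, so no result is read from it. In pairs that differ in diet or genotype alone that share was 11.2% to 31.5%. KO chow and KO HFD overlapped through KO HFD 3. The KO diet difference was 0.43 with 10 libraries (95% interval −0.16 to 1.02) and 0.10 without KO HFD 1. In WT the diet difference was 0.44 with 10 libraries (95% interval −0.40 to 1.27) and 0.43 with 12 (−0.99 to 1.85). The ratio of Scarb1 to Abca1, uptake to export, was 3.52 ± 1.0 (SD, n = 3) in KO chow and 9.15 ± 2.97 in KO HFD. Its single values were 3.95, 2.37 and 4.23 in KO chow and 12.4, 6.56 and 8.50 in KO HFD, with no overlap, and they carry the length trend of Abca1.

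Soat2, the hepatocyte esterification enzyme, had its highest library in WT HFD and its lowest values in WT chow 2 and WT chow 3, the libraries that stood apart. Soat2 (ENSMUSG00000023045, chromosome 15, 102150526 to 102163474, plus strand) stood at 41.6, 30.5 and 22.4 FPKM in WT HFD and at 21.9, 26.4 and 22.8 in KO chow. KO HFD held 12.7, 20.1 and 23.5 FPKM, with the lowest value again in KO HFD 1, and WT chow held 33.2, 1.37 and 1.51 FPKM. WT HFD and KO HFD overlapped in that KO HFD 3 exceeded WT HFD 3. KO HFD against WT HFD gave −0.71 with 10 libraries (SE 0.26, 95% interval −1.29 to −0.14), with an adjusted p of 0.369 that did not pass. KO HFD against KO chow gave −0.36 (95% interval −0.94 to 0.22).

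The sign and the call of Soat2 against WT chow depended on which WT chow libraries were used. With 12 libraries KO chow against WT chow was 2.07 (SE 0.83, adjusted p = 0.211) and WT HFD against WT chow was 2.42 (SE 0.83, adjusted p = 0.307). Without WT chow 1, which leaves WT chow 2 and 3 as the group, Soat2 passed with 3.34 (adjusted p = 5.94e-05) and 3.70 (adjusted p = 3.24e-05), in a fit where 24.3% and 19.9% of all genes passed. With WT chow 1 as the only library of its group the differences were −0.48 and −0.12, and neither passed. The Soat2 interaction was −2.78 with 12 libraries (adjusted p = 0.294), and it passed without WT chow 1 at −4.05 (adjusted p = 0.000201), as did 18.5% of all genes.

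The receptor genes varied less than the transporter genes over the 10 libraries, with coefficients of variation of 10% and 18.6%. Nr1h3 (LXR alpha, ENSMUSG00000002108, chromosome 2, 91184061 to 91202834, minus strand) stood at 62.1, 65.2 and 63.5 FPKM in WT HFD, 61.3, 49.6 and 56.0 in KO chow and 68.8, 57.9 and 70.4 in KO HFD. WT chow held 59.9, 91.1 and 29.3 FPKM. The 4 pairs of groups that differ in diet or genotype alone overlapped, and the 10 libraries kept within 49.6 to 70.4 FPKM. KO HFD against WT HFD gave 0.04 with 10 libraries, with a 95% interval of −0.25 to 0.33, and KO HFD against KO chow gave 0.24 (−0.06 to 0.53). The first of these was −0.08 after rescaling to TPM, so it carries no direction. The gene body overlaps the transcript Gm13783 on the same strand, which was listed at 0 to 0.331 FPKM.

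Nr1h2 (LXR beta, ENSMUSG00000060601, chromosome 7, 44549616 to 44553951, minus strand) stood at 17.9, 19.4 and 16.8 FPKM in KO chow, and 29.7, 18.9 and 21.8 FPKM in the libraries of KO HFD. WT HFD held 26.3, 19.7 and 20.8 FPKM, and WT chow held 23.5, 54.2 and 21.1 FPKM. All KO chow libraries were below all WT chow libraries, as 16.8% of all tested genes did not overlap in that pair. Among pairs that differ in diet or genotype alone, it was the other separated one among the members besides those of Abca1. The estimate was −0.71 with 12 libraries (SE 0.33, adjusted p = 0.249) and −0.37 with 10 (95% interval −0.94 to 0.20), and neither passed. Nr1h3 exceeded Nr1h2 in all 12 libraries. Their FPKM ratio was 2.92 ± 0.431 (SD, n = 10), from 2.32 to 3.43 in the 10 libraries, and fell outside that range in WT chow 2 at 1.68 and WT chow 3 at 1.39.

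KO HFD 1 was the highest of the 10 libraries for Abcg1, Scarb1 and Nr1h2 and the lowest for Soat2. Its hepatocyte marker sum, 38660 FPKM over 7 genes, was the lowest of the 10. That library held 43.3 FPKM of Fabp4, within the 5.54 to 45.5 FPKM of the other 9. The part of cell content in these values was not tested.

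After the length trend was removed, Abcg8, Abcg1 and Scarb1 also stood higher in every KO HFD library than in every KO chow library, beside Abca1 lower. Their estimates with 10 libraries were 0.32 for Abcg8 (95% interval −0.28 to 0.91), 0.90 for Abcg1 (0.06 to 1.74) and 0.52 for Scarb1 (0.00 to 1.04). None passed, with adjusted p of 0.519, 0.218 and 0.245. Against 25.9% of all genes separated on that scale, 4 of 8 members were.

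Among 18 LXR partners, co-regulators and other LXR targets, all tested, none passed in any comparison with 12 libraries. In the 10 libraries 2 of the 18 passed, both lower in KO HFD than in KO chow, where 6.24% of all genes passed as lower. Scd1, the stearoyl-CoA desaturase and an LXR and SREBP-1c target, stood at 682, 977 and 346 FPKM in KO chow, and 223, 235 and 161 FPKM in the libraries of KO HFD, with no overlap. Its difference was −1.59 (SE 0.34, adjusted p = 0.0371). Ncor1, the co-repressor held by unliganded receptors, is a long gene of 9037 bases. Its level was 9.46, 11.3 and 7.83 FPKM in KO chow, and 6.48, 5.17 and 4.47 FPKM in the libraries of KO HFD (difference −0.72, SE 0.16, adjusted p = 0.0381). The list's median in that comparison was −0.10 against −0.06 for all genes, with 7 higher and 11 lower. With the length trend removed as well the median was 0.15, with 12 higher and 6 lower, and 0 of 18 passed. Scd1 was then −1.31 (SE 0.30, adjusted p = 0.0922) and Ncor1 −0.26 (SE 0.11, adjusted p = 0.215). The Scd1 estimate for WT HFD against WT chow was −2.32 with 10 libraries (SE 0.49, adjusted p = 0.91) and −3.14 with 12 (SE 1.08, adjusted p = 0.307), and neither passed. Scd1 was at 8617 FPKM in WT chow 3. The remaining values in KO HFD against KO chow were small or uncertain, such as 0.97 for Pltp, the phospholipid transfer protein (SE 0.56, adjusted p = 0.282).

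Other genes of sterol handling numbered 20, of which 17 were tested, and none passed with 12 libraries. In the 10 libraries 2 of the 17 passed, again lower in KO HFD than in KO chow, where 6.24% of all genes passed as lower. All genes passing there fell from 951 to 18 without KO chow 1 and to 17 without KO chow 2. The genes of both lists were not followed in those fits. Stard4, which carries sterol between membranes in the cytosol, stood at 39.0, 30.7 and 32.5 FPKM in KO chow, and 7.90, 11.4 and 17.3 FPKM in the libraries of KO HFD. Its difference was −1.47 (SE 0.25, adjusted p = 0.0305). Npc1, which exports cholesterol from lysosomes, stood at 24.2, 25.9 and 19.6 FPKM in KO chow, and 12.9, 14.5 and 12.3 FPKM in the libraries of KO HFD (difference −0.76, SE 0.15, adjusted p = 0.0334). Neither pair of groups overlapped, as in 31.5% of all genes. The list's median there was −0.18 against −0.06 for all genes, with 4 higher and 13 lower. With the length trend removed 0 of 17 passed and the median was −0.15. Stard4 was then −1.19 (SE 0.29, adjusted p = 0.0987) and Npc1 −0.44 (SE 0.13, adjusted p = 0.127). For KO HFD against WT HFD the list's widest value was −0.90 for Cyp7a1, the rate-limiting enzyme of bile acid synthesis (SE 0.62, adjusted p = 0.561). The list's medians of 1.29 for KO chow against WT chow and 1.28 for WT HFD against WT chow with 12 libraries were 0.17 and 0.02 with 10.

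Over the 10 libraries, correlations on the log2 scale across 12245 genes described which genes had profiles most like each member, with libraries, groups and depth shared by all. Predicted and clone-named genes were ranked but are not named, so ranks among the named genes can skip. The first gene named had rank 2 for Abcg5 and for Soat2. Abca1 was most like Smg1, Zmynd11 and Utrn (Pearson r of 0.984, 0.982 and 0.982). Abcg5 was most like Ngef (0.965), Abcg8 and Rgs16 (0.915), and Abcg8 was most like Abcg5, Zbtb45 (0.934) and Dio3os (0.93). Scarb1 was nearest to Mrps5 (0.975), Adrb3 (0.939) and Smarcd2 (0.935), and Abcg1 to Tdp1 (0.981), B9d1 (0.979) and Slc43a2 (0.969). KO HFD 1 held the highest value of both members among the 10 libraries, at 114 and 6.71 FPKM. That single library can set much of these correlations, which were not computed without it. Nr1h3 was nearest to Eif1ad (0.943), Leng9 (0.923) and Commd9 (0.919), and Nr1h2 to Gng11 (0.941), Ldb1 (0.924) and Fam167b (0.912). Soat2 was nearest to Clcn2 (0.913), Scnn1a (0.909) and Lhx2 (0.906). Abcg5 and Abcg8 were the only members among each other's nearest genes. Among members, Scarb1 had r of 0.73 with Abcg5 and 0.631 with Abcg8. Abca1 and Nr1h3 ran in opposite directions, with r of −0.759, and Abca1 had r of −0.105 with Abcg5 and 0.125 with Abcg8. All these correlations used values with the length trend left in, and Abca1 has 10262 bases against 1985 for Nr1h3. The part of that trend in the correlations of Abca1 was not tested.

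Cell type markers moved with some of these groups. The sum of 7 hepatocyte markers was 43244 to 47274 FPKM in KO chow, 38660 to 57902 in KO HFD, 63222 to 68432 in WT HFD and 33.9 to 61049 in WT chow. These sums were mostly Alb and Apoa2 outside WT chow. Only Alb separated WT HFD (29905 to 41503 FPKM) from KO chow (15438 to 20343) and KO HFD (12811 to 21127). Ttr, Apoa2, Serpina1a, Cps1, Cyp2e1 and Tat overlapped between WT HFD and each KO group. The sum of 8 macrophage and Kupffer cell markers was 63.3 to 88.4 FPKM in KO chow, the group with the highest Abca1, and 91.2 to 172 in KO HFD. It was 93.4 to 222 in WT HFD and 22.3 to 181 in WT chow, where Marco and Vsig4 were listed at 0 in WT chow 3. Of these markers C1qa, Cd5l and Cd68 were higher in every KO HFD library than in every KO chow library. Clec4f, Adgre1, Vsig4, Csf1r and Marco overlapped, with Marco at 16.5, 1.33 and 9.36 FPKM in KO chow and 0.458, 0.786 and 42.3 in KO HFD. In that pair 31.5% of all genes did not overlap. The sum of 6 pancreatic acinar markers was 37.0 to 64.6 FPKM in KO HFD and at most 0.736 in WT HFD and KO chow, where all but Cela2a were listed at 0. Sums of 5 sinusoidal endothelial markers overlapped, at 23.8 to 38.9 in KO chow and 26.8 to 29.9 FPKM in KO HFD, as did 5 stellate cell markers at 45.5 to 72.1 and 52.7 to 74.7. Enterocyte markers summed to 102 to 124 in KO chow and 119 to 492 FPKM in KO HFD. These sums were almost wholly Fabp2 and Apoa4, while Vil1, Alpi and Sis were each at most 0.512 FPKM in both groups. General adipocyte markers summed to 6.86 to 11.4 and 8.65 to 47.3 FPKM, and brown adipocyte markers to 43.7 to 52.1 and 32.1 to 52.3 FPKM. The brown adipocyte sums were mostly Elovl3 and Cox7a1, while Ucp1 was at most 0.0336 FPKM in both groups. The part of these cells in the levels of the 8 genes was not tested.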

How the data were processed

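The authors deposited FPKM for 35275 genes in 12 columns, with gene lengths and coordinates per the file headers. The tools named in the submitters' processing notes are TopHat and STAR (aligners), HTSeq 0.6.1, CASAVA and, as version 2, DESeq2, on the builds GRCm38 and mm10. Which tool made the values, the annotation release and the strand setting were not given in any source used here. Columns were mapped to samples by title, with 0 value columns left over. FPKM times gene length gave whole reads for 100% of values (tolerance 0.1 of a read), and 15705196 to 20311766 reads on genes per library. The 8 members and all gene lists were chosen with earlier results of these data known.

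Values were taken as log2(FPKM + 1), a scale that compresses differences of low genes. The 12251 genes that averaged at least 0.5 FPKM were fitted in limma 3.58.1 (R 4.3.3) with 4 group means, a trended empirical Bayes variance and 5 contrasts, with Benjamini-Hochberg adjustment over all genes and a threshold of 0.05. Nothing beyond the design text says that the 3 libraries of a group came from separate mice, and p-values measure the spread between these libraries. The fit was tested on simulated data. Alternatives covered the pseudocount, filter, scaling, library weights, the replicate block and leaving out each library. Added with the values known were fits of 10 and 9 libraries, limma-voom on recovered reads, and removal of the gene length trend, for which the median deviation from the 10-library mean was subtracted in classes of like length. Named genes were all 8 members, list genes past the threshold or with the largest differences, and the 3 nearest genes by correlation, without predicted and clone-named genes. Of the marker genes, 1 was matched under an older symbol. Promoter sequences are RefSeq's, on GRCm38.p6. Python 3.11.15 with matplotlib 3.10.9 drew the figures.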

Additional observations from a re-analysis of the deposited data

Results flagged for a closer look

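The diet difference of Abca1 ran in opposite directions in the genotypes, with every WT HFD library above every WT chow library and every KO HFD library below every KO chow library. The difference between them was −1.50 on the log2 scale (limma interaction, SE 0.34, adjusted p = 0.289 with 12 libraries), which did not pass. The WT direction was not supported without the libraries labelled WT chow 2 and WT chow 3: the WT diet difference was 0.64 with 12 libraries and 0.29 without them, with a 95% interval of −0.34 to 0.92. The interaction was −1.15 with 10 libraries and −0.67 with 10 libraries and the length trend removed. Single libraries were not tested against their own group, since groups of 3 are too small for it.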

How the results depend on the processing

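Of 992 member estimates under the alternatives, 927 kept their sign and call, 57 changed sign and 8 passed where the 12-library fit did not. Abca1 kept its sign in all of them. Many estimates could not change sign, since leaving out a library moves only the comparisons its group enters. No call could be lost, since no member passed with 12 libraries, so the count of 927 does not measure how firm the estimates are. In KO HFD against KO chow 1 member passed with library weights and 1 with 10 libraries, in each case Abca1. The count of members past the threshold ran from 0 to 2 when 1 library was left out for KO chow against WT chow, for WT HFD against WT chow and for the interaction, and 2 was reached without WT chow 1, where 24.3%, 19.9% and 18.5% of all genes passed. It was 0 in the other alternatives to the 12-library fit. From the 10 libraries Abca1 still passed without KO chow 3 and in no other fit that left out a KO library. All genes called in KO HFD against KO chow numbered 19 with 12 libraries, 951 with 10, 39 with 9, 45 with 10 and the length trend removed, and 2420 with library weights (Abca1 −0.79, adjusted p = 0.0111). From the 10 libraries the count became 18, 17 and 1535 without KO chow 1, 2 and 3, and 39, 396 and 88 without KO HFD 1, 2 and 3. The interaction gave 15 with 12 libraries, 10 with 10, 24 with 9, 5 with the length trend removed, 7 with library weights and 0 with limma-voom. KO HFD against WT HFD gave 19, and 33 with library weights. Rescaling to TPM moved the median log2 difference of all genes from 0.08 to 0.25 (KO chow against WT chow), from −0.03 to −0.13 (KO HFD against WT HFD), from 0.02 to 0.12 (WT diet), from −0.06 to −0.23 (KO diet) and from −0.10 to −0.37 (interaction). No member passed under TPM.

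Estimates that changed sign lay mostly in comparisons with WT chow. For KO chow against WT chow, 10 and 9 libraries gave Abcg5 −0.24, Abcg8 −0.20, Abcg1 0.29, Nr1h3 −0.11 and Soat2 −0.48, and 10 libraries without the length trend gave Abcg5 −0.27, Abcg8 −0.30, Abcg1 0.20, Nr1h3 −0.12 and Soat2 −0.51. Nr1h3 was −0.09 with median-of-ratios scaling, −0.10 with library weights, −0.08 with limma-voom and −0.03 without the length trend, and Scarb1 was 0.08 under TPM. For WT HFD against WT chow, 10 and 9 libraries gave Abcg1 0.57 and Soat2 −0.12, and 0.56 and −0.13 without the length trend. For KO HFD against WT HFD, 9 libraries gave Abcg1 −0.06 and Nr1h2 −0.11, TPM gave Nr1h3 −0.08 and Nr1h2 −0.05, library weights gave Nr1h3 −0.07 and Nr1h2 −0.06, and Nr1h3 was −0.02 without the length trend with 12 or 10 libraries. In KO HFD against KO chow Abcg8 was −0.04 under TPM. The interaction was −0.34 for Abcg1 with 9 libraries and −0.29 for Nr1h3 under TPM. The cause of these changes was not tested.

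Leaving out 1 library in turn gave these ranges where a sign changed. For KO chow against WT chow they were −0.68 to 2.33 for Abcg5, −0.56 to 2.35 for Abcg8, −0.41 to 0.39 for Nr1h3 and −0.91 to 0.69 for Scarb1. For KO HFD against WT HFD they were −0.06 to 0.77 for Abcg1, −0.01 to 0.13 for Nr1h3, −0.11 to 0.20 for Nr1h2 and −0.43 to 0.12 for Scarb1. For WT HFD against WT chow they were −1.58 to 0.05 for Abcg1, −0.21 to 0.59 for Nr1h3 and −0.37 to 1.23 for Scarb1. For the interaction they were −2.72 to 0.29 for Abcg5, −2.87 to 0.04 for Abcg8, −0.35 to 0.45 for Nr1h3 and −0.80 to 0.80 for Scarb1.

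The correlations of same-numbered deviations from the group means ran from −0.504 to 0.131. Differently numbered libraries were not compared, so whether the replicate numbers pair the libraries cannot be told from these values. With the replicate block 0 members passed in each comparison, and the Abca1 interaction was −1.50 with an adjusted p of 0.369.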
